A study of Mus musculus with 16 samples.

Results

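The genes described here are the cell-surface mucins and the enzymes that build mucin-type O-glycans and related terminal sugars, followed in colonocyte RNA-seq of mice on 2 diets. Members were taken by gene symbol: every row named Galnt or Galntl followed by a number, together with a list of genes by role. This choice was made with earlier results of these data known. The rule found 48 of the 54392 symbols in the count table, and 38 of them passed the filter on low counts. The 48 comprise 19 polypeptide GalNAc-transferases, 5 cell-surface mucins, 2 genes of core 1 synthesis, 3 of core 2 and core 4 branching, 3 of core 3 synthesis and chain extension, 3 beta-1,4-GalNAc-transferases, 3 fucosyltransferases, 7 sialyltransferases and 3 sulfotransferases.

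For 3 weeks, C57BL/6 mice received fish oil with pectin as fat and fibre (7 libraries) or corn oil with cellulose (9 libraries), and mRNA libraries were made from 200 ng of colonocyte RNA. No mutation, transgene or carcinogen is named in the labels of either diet, and age is not given. Library names take 2 forms whose meaning is not given: names with a GC prefix (5 fish oil/pectin and 5 corn oil/cellulose libraries) and names without it (fish oil/pectin libraries 1 and 2, corn oil/cellulose libraries 1 to 4). Library numbers begin with 7 (all 7 fish oil/pectin libraries and corn oil/cellulose libraries 1, 2, 5 and 6) or with 8 (corn oil/cellulose libraries 3, 4, 7, 8 and 9), so number series and diet cannot be told apart in those 5. The diet effect was fitted with a term for name form.

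Mucin-type O-glycosylation begins in the Golgi, where polypeptide GalNAc-transferases attach N-acetylgalactosamine (GalNAc) to serine and threonine. The sugar is then extended into core structures, branched, and capped with fucose, sialic acid or sulfate. In the colon these chains cover the secreted mucus gel and the membrane-bound mucins of the glycocalyx, and their terminal sugars serve as binding sites and food for bacteria.

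Fish oil/pectin libraries held 16212831 to 19512755 counts and corn oil/cellulose libraries 13996288 to 19331984. The members took 0.848% to 0.993% of all counts in fish oil/pectin libraries and 0.834% to 0.983% in corn oil/cellulose libraries. The colonocyte label was checked against marker genes, and summed general epithelial markers lay between 14020 and 24067 CPM (read counts scaled to a common library size) in fish oil/pectin libraries and between 13978 and 17360 CPM in corn oil/cellulose libraries. Fibroblast markers summed to at most 1.37 CPM in fish oil/pectin libraries and 4.41 CPM in corn oil/cellulose libraries. Endothelial markers summed to 3.85 to 11.7 CPM in fish oil/pectin libraries and 6.82 to 12.4 CPM in corn oil/cellulose libraries. Of these, Cdh5 was at 0 in every library, while Pecam1 and Vwf were detected in all. Fish oil/pectin library 7 stood apart, with 147 CPM of summed distal colon markers against 365 to 715 CPM in the remaining 6 of that diet and 322 to 641 CPM in corn oil/cellulose libraries. By Y-linked counts, 4 of the 5 GC-named fish oil/pectin libraries and 3 of the 5 GC-named corn oil/cellulose libraries were female, and all others were male.

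Per kilobase of exon, Muc13 and Muc3 stood far above every other member. Muc13, a transmembrane mucin of the apical surface, averaged 905 ± 154 CPM per kilobase in fish oil/pectin libraries and 689 ± 67.4 in corn oil/cellulose libraries (SD, n = 7 and 9). Muc3, a brush-border mucin, averaged 642 ± 212 CPM per kilobase in fish oil/pectin libraries and 668 ± 145 in corn oil/cellulose libraries. Averaged over all 16 libraries the most abundant enzyme was B4galnt2, at 128 ± 40.3 CPM per kilobase in fish oil/pectin libraries and 199.6 ± 34.2 in corn oil/cellulose libraries. In fish oil/pectin libraries alone St6galnac6 (165 CPM per kilobase) and B3gnt7 (130) averaged more than B4galnt2. The leading genes of the other roles, averaged over the 16 libraries, were St6galnac6 (162 CPM per kilobase), B3gnt7 (156), Galnt12 (58.2), the chaperone gene C1galt1c1 (44.0), Gcnt3 (40.4), Fut2 (33.1) and Chst4 (32.2). Muc4 averaged 7.17 CPM per kilobase and Muc1 1.21, far below the other pair of mucins. The lead changed with diet in 2 of these roles: in corn oil/cellulose libraries Galnt4 (55.5) averaged more than Galnt12 (53.2), and Fut4 (35.7) more than Fut2 (28.9).

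**Figure D1:**
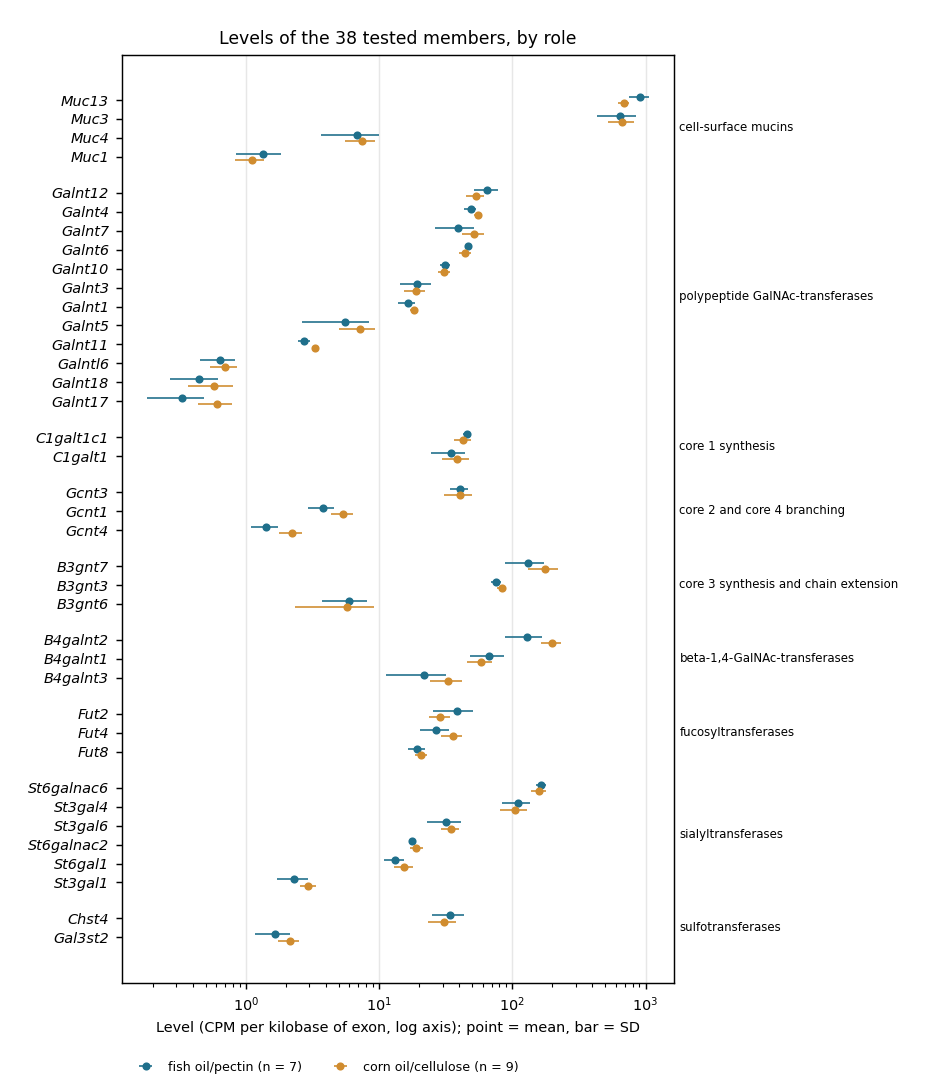
Mean level of each of the 38 tested members in CPM per kilobase of merged exon length (log axis), with SD bars, for fish oil/pectin (blue, n = 7, upper point of each pair) and corn oil/cellulose (orange, n = 9, lower point). Muc13 and Muc3 lie at the right, at 642 to 905 CPM per kilobase, and Galnt17, Galnt18 and Galntl6 lie at the left, below 1 CPM per kilobase.

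The 10 members that failed the filter were Galnt2, Galnt9, Galnt13, Galnt14, Galnt15, Galnt16, Galntl5, Muc20, St6galnac1 and Chst5. None of them exceeded 9 counts in any library. St6galnac1, the enzyme that makes the sialyl-Tn structure, had 0 to 3 counts, and Galnt2 had 0 to 6. On the same strand, 90% of the exon bases of Galnt2 are shared with the annotated gene Gm20388, which had 0 counts in every library. How reads that fall on both genes were counted is not given, so the level of Galnt2 is uncertain.

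Of the 38 tested members, 11 passed an adjusted p of 0.05 (28.9%), against 41.7% of the 14321 genes tested. Fish oil/pectin raised 3 of them, Fut2, Muc13 and Galnt12 (7.89% of the members, against 21.7% of all genes). It lowered 8, Galnt17, Gcnt4, B4galnt2, Gcnt1, Fut4, Galnt7, Galnt11 and Galnt4 (21.1%, against 20.1% of all genes). The share of members that fell was close to the background, and the share that rose was below it. The median log2 fold change was -0.10 over the members and -0.0043 over all genes. Over all libraries no member had CPM that did not overlap between the diets, where 2.35% of all genes were higher and 0.999% lower without overlap. In the libraries numbered from 7 alone, 7 against 4, 3 of the 38 members passed (Muc13, Galnt11 and B4galnt2), against 15.8% of all genes, and the other 8 calls were lost. With sex as a covariate 8 members passed, against 38.5% of all genes, and Fut4, Galnt12 and Galnt4 did not (adjusted p = 0.0516 to 0.0675). In bulk RNA, fewer cells of a type and less RNA per cell cannot be told apart.

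T and NK cell markers differed by diet in the GC-named libraries. The summed B and plasma cell, macrophage, fibroblast, smooth muscle and endothelial markers overlapped between the diets there. Of 10 T and NK cell markers 8 fell in the fit over all 16 libraries, against 20.1% of all genes. Their summed CPM was 18.3 to 37.7 in GC-named fish oil/pectin libraries against 49.3 to 96.9 in GC-named corn oil/cellulose libraries. In the libraries without the prefix the same sums overlapped, at 16.4 to 21.3 CPM with fish oil/pectin and 15.7 to 20.5 CPM with corn oil/cellulose. Summed general epithelial markers ran the other way in the GC-named libraries, at 19634 to 24067 CPM against 16067 to 17360 CPM. Over all 16 libraries 4 of these 7 markers rose, Krt8, Krt18, Krt19 and Cldn7, against 21.7% of all genes. Epcam and Vil1 did not pass, nor did Cdh1, which had a log2 fold change of -0.13. A non-epithelial score was taken over 16 markers, 10 of T and NK cells, 4 of macrophages and 2 of endothelium. It separated the diets in the GC-named libraries without overlap (1.21 to 1.53 against 1.90 to 2.49). Score and diet therefore cannot be told apart in those libraries. With that score in the model, edgeR called 0 members, 6 had an unadjusted p under 0.05, and 1 gene of the whole table passed. Of 10 goblet cell markers Agr2 and Spink4 rose and none fell, where 21.7% of all genes rose and 20.1% fell. Both risers are also on the list of deep crypt secretory markers. Muc2, the gel-forming mucin of the colon, had a log2 fold change of 0.03 ± 0.27 (SE, adjusted p = 0.933). Whether goblet cell numbers differed was not tested.

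**Figure D2:**
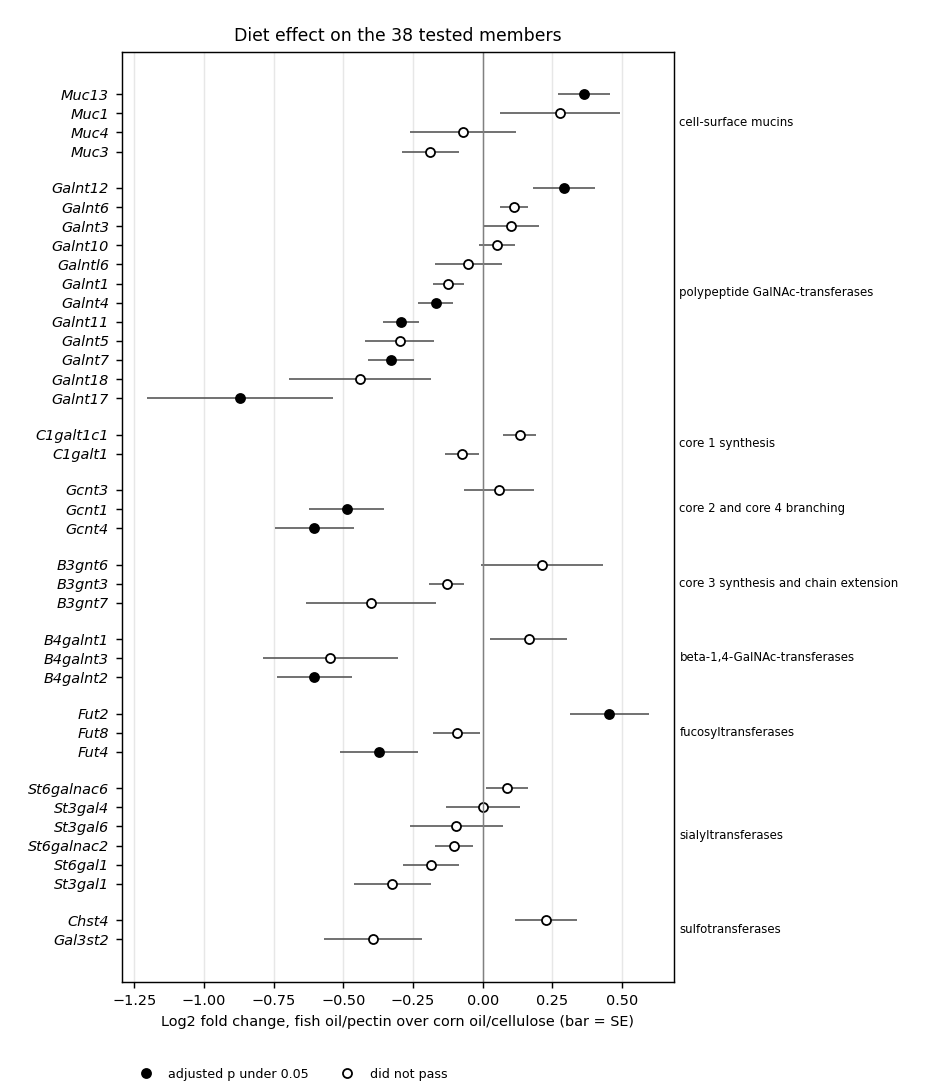
Log2 fold change of each tested member, fish oil/pectin over corn oil/cellulose, with SE bars, grouped by role. Filled points mark the 11 members with an adjusted p under 0.05, of which 3 lie to the right of 0 and 8 to the left.

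Among the cell-surface mucins, Muc13 rose and the other 3 tested did not pass, where 21.7% of all genes rose. Muc13 lies at chr16:33794037-33819934 (GRCm38, plus strand). It had 1845, 2860.0 and 3224 CPM (lowest, median, highest) in fish oil/pectin libraries, against 1807, 2059.8 and 2507 CPM in corn oil/cellulose libraries. Fish oil/pectin library 1 sat among the corn oil/cellulose values, and the other 6 lay above all of them. The log2 fold change was 0.36 ± 0.09 (SE), or 1.29-fold, with an adjusted p of 0.0054, and the call held when any library was left out.

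A promoter window of Muc13, running from 250 bases before to 50 after a RefSeq start, is shown because Muc13 is the most abundant member and rose. It was searched on both strands for AGGTCA, the half-site of many nuclear receptors, and capitals mark 2 matches, which read TGACCT on this strand. AGGTCA occurs in 16.3% of 32851 such windows in the RefSeq table. Of the 11 members past the threshold 8 have an entry there, and 1 of them, Muc13, holds a match in any of its windows. That count is of genes, some with more than 1 window, and the share is of windows. The other Muc13 window, chr16:33793787-33794086, also holds a match and is not shown. The sequence is from RefSeq (GRCm38.p6), chr16:33794239-33794538, plus strand.
Muc13: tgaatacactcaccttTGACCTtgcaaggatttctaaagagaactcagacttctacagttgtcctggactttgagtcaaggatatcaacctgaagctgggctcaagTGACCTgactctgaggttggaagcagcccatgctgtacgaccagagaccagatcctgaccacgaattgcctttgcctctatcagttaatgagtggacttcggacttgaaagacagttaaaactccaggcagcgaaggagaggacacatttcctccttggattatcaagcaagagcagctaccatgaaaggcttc

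Muc3 had 767, 1254 and 1939 CPM in fish oil/pectin libraries, against 887, 1376 and 1707 CPM in corn oil/cellulose libraries. The ranges overlapped, and the log2 fold change of -0.19 did not pass (95% interval -0.41 to 0.04, adjusted p = 0.154). Without fish oil/pectin library 7 it was -0.28 with an adjusted p of 0.00978. Levels of Muc3 differed by name form, at 1108 to 1939 CPM with fish oil/pectin and 1376 to 1707 CPM with corn oil/cellulose in GC-named libraries, against 767 to 788 CPM and 887 to 1162 CPM for the same diets in the others. A separate row, Muc3a, which the rule did not take, differed by 0.10 on the log2 scale (adjusted p = 0.743), and how reads matching both rows were counted is not given.

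Muc4, a large epithelial membrane mucin, had 41.6, 62.6 and 133 CPM in fish oil/pectin libraries, against 64.1, 76.5 and 133 CPM in corn oil/cellulose libraries. Its log2 fold change of -0.07 had a 95% interval of -0.48 to 0.34 (adjusted p = 0.794). Muc1, the widely expressed membrane mucin, had 1.84, 3.21 and 4.76 CPM in fish oil/pectin libraries, against 1.92, 2.55 and 3.85 CPM in corn oil/cellulose libraries. The fitted log2 fold change was 0.28, with an interval of -0.19 to 0.75 (adjusted p = 0.317). Diets overlapped for both mucins, and the intervals leave room for moderate changes in either direction.

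The polypeptide GalNAc-transferases, which set where O-glycans start, had members that passed in both directions. Of 12 tested, Galnt12 rose, 4 fell and 7 did not pass, where 21.7% of all genes rose and 20.1% fell, and the family's median log2 fold change was -0.15. Galnt12, the most abundant of them per kilobase over the 16 libraries, had 116, 139.7 and 212 CPM in fish oil/pectin libraries, against 101, 115 and 161 CPM in corn oil/cellulose libraries. The ranges overlapped widely, and fish oil/pectin library 7 alone lay above the corn oil/cellulose maximum. With all libraries the log2 fold change was 0.29 ± 0.11 (adjusted p = 0.0443), and 0.19 without fish oil/pectin library 7 (adjusted p = 0.0884). The call was also lost, with an adjusted p of at most 0.0888, on leaving out any of corn oil/cellulose libraries 1, 3, 4, 5, 6, 7 and 9 or fish oil/pectin libraries 1, 5 and 6.

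Galnt11 and Galnt7 fell, and did so when any single library was left out. Galnt11, known for modifying proteins of the LDL receptor family, had 16.7, 17.9 and 22.3 CPM in fish oil/pectin libraries, against 21.1, 23.0 and 24.3 CPM in corn oil/cellulose libraries. Within each name form its diets did not overlap: GC-named values were 17.4 to 22.3 CPM against 22.7 to 24.3 CPM, and the others 16.7 to 19.3 CPM against 21.1 to 23.0 CPM. Its log2 fold change of -0.29 ± 0.07 (adjusted p = 0.00221) was nearly equal in the 2 forms, at -0.30 in GC-named libraries and -0.29 in the others. Galnt7, which acts on peptides that already carry GalNAc, had 131, 186 and 305 CPM in fish oil/pectin libraries, against 209, 253 and 349 CPM in corn oil/cellulose libraries. Its GC-named libraries did not overlap, at 131 to 186 CPM against 209 to 253 CPM, while the others did, at 298 to 305 CPM against 283 to 349 CPM. Galnt7 fell by 0.33 ± 0.08 on the log2 scale (adjusted p = 0.00471), but did not pass with no name-form term (adjusted p = 0.0710) or in the libraries numbered from 7 alone (adjusted p = 0.0536).

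Galnt4 and Galnt17 also fell, with calls that most leave-one-out fits lost. Galnt4, an abundant transferase that favours glycosylated substrates, had 211, 239 and 282 CPM in fish oil/pectin libraries, against 263, 276 and 325 CPM in corn oil/cellulose libraries. Its log2 fold change of -0.17 ± 0.06 (adjusted p = 0.0369) was the smallest among the 11 members that passed. That call was lost, with an adjusted p of at most 0.0780, on leaving out any of corn oil/cellulose libraries 1, 2, 5, 6, 7 and 8 or fish oil/pectin libraries 2, 4, 5, 6 and 7. Galnt17, a transferase best known from brain, had 0.172, 3.70 and 4.27 CPM in fish oil/pectin libraries, against 3.22, 5.47 and 8.31 CPM in corn oil/cellulose libraries. The lowest value was fish oil/pectin library 7. The log2 fold change was -0.87 ± 0.33 (adjusted p = 0.0446), and -0.67 without that library (adjusted p = 0.0101). The Galnt17 call was lost, with an adjusted p of at most 0.0935, without any of corn oil/cellulose libraries 1, 3, 4, 6, 7 and 8 or fish oil/pectin libraries 1, 3, 5 and 6.

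**Figure D3:**
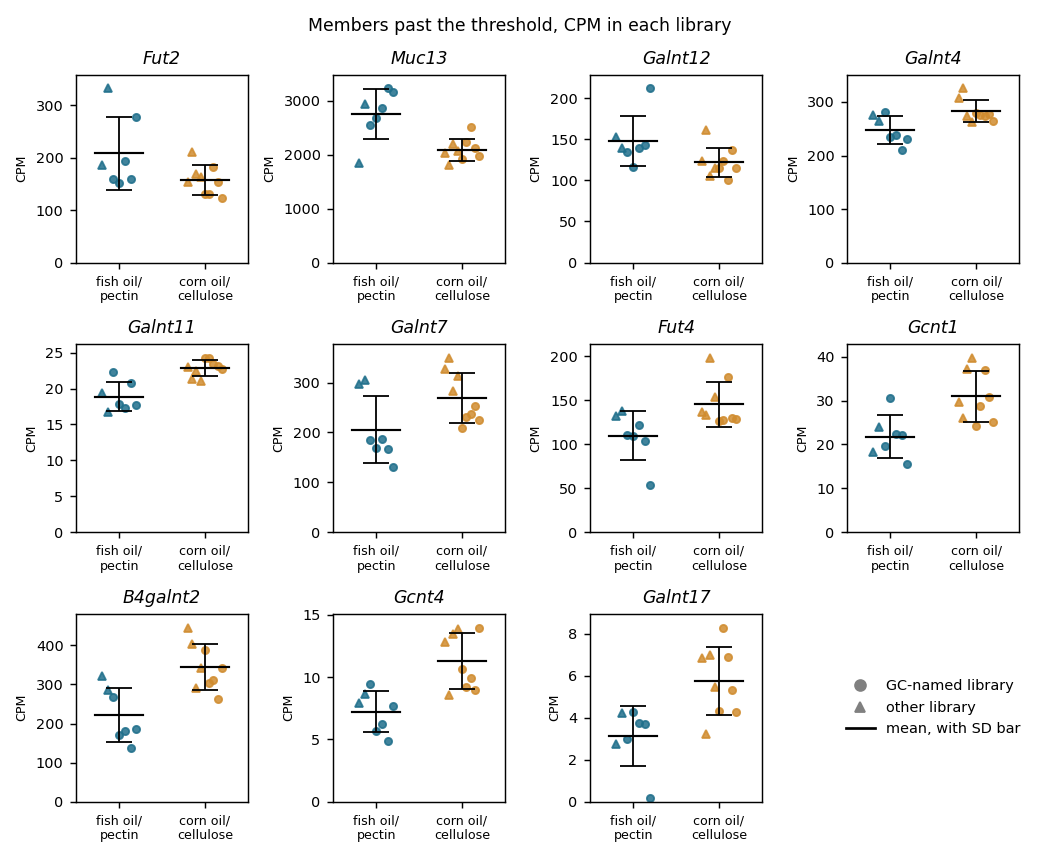
CPM in each library for the 11 members past the threshold, fish oil/pectin (blue) left of corn oil/cellulose (orange) in each panel. Circles are GC-named libraries, triangles the others, and black lines the mean with SD (n = 7 and 9). Fish oil/pectin library 7, the rightmost blue circle, is the highest of its diet for Galnt12 (212 CPM) and the lowest for Fut4 (53.7 CPM) and Galnt17 (0.172 CPM).

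Of the 7 GalNAc-transferases that did not pass, log2 fold changes ran from -0.44 for Galnt18 to 0.11 for Galnt6. Galnt5 and Galnt6 were separated by diet within the GC-named libraries. Galnt5 had 13 to 20.9 CPM in GC-named fish oil/pectin libraries against 21.7 to 32.1 CPM in GC-named corn oil/cellulose libraries. Its log2 fold change was -0.53 in those libraries (adjusted p = 0.00347) and 0.08 in the others, and the difference between the 2 did not pass (adjusted p = 0.0876). Galnt6 had 171 to 191 CPM with fish oil/pectin against 151 to 163 CPM with corn oil/cellulose in the GC-named libraries, and 184 to 187 CPM against 183 to 200.3 CPM in the others. Galnt5 passed on leaving out any of corn oil/cellulose libraries 3 and 4 or fish oil/pectin libraries 1 and 2. Across all libraries Galnt5 and Galnt6 had adjusted p-values of 0.0622 and 0.0845.

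Core 1 synthesis, the step that adds galactose to the GalNAc, showed no change past the threshold, where 41.7% of all genes passed. C1galt1, the galactosyltransferase, had 163, 181 and 311 CPM in fish oil/pectin libraries, against 181, 209 and 333 CPM in corn oil/cellulose libraries. The fitted change was -0.08 on the log2 scale, with a 95% interval of -0.21 to 0.06 (adjusted p = 0.34). C1galt1c1, the chaperone Cosmc that C1galt1 needs, had 60.3, 65.3 and 71.7 CPM in fish oil/pectin libraries, against 51.6, 60.9 and 80.5 CPM in corn oil/cellulose libraries. For this gene the change of 0.13 had an interval of 0.00 to 0.26 and an adjusted p of 0.0867. Without corn oil/cellulose library 2 it was 0.16 and passed (adjusted p = 0.0194). In the fit over all libraries the intervals bound both genes to small shifts. Within the GC-named libraries C1galt1 did not overlap by diet (163 to 181.2 CPM against 181.4 to 209 CPM). C1galt1c1 passed there (adjusted p = 0.0459 in the joint model).

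Of the 3 branching enzymes 2 fell and 1 did not pass, where 20.1% of all genes fell. Gcnt3, the mucin-type enzyme of core 2 and core 4 and the most abundant of the 3 per kilobase, had 136, 172 and 210.2 CPM in fish oil/pectin libraries, against 128, 159.5 and 260.5 CPM in corn oil/cellulose libraries (0.06 on the log2 scale, adjusted p = 0.733). Gcnt1 and Gcnt4, both core 2 enzymes, fell. Gcnt1 had 15.5, 22.1 and 30.6 CPM in fish oil/pectin libraries, against 24.1, 29.7 and 39.7 CPM in corn oil/cellulose libraries. All fish oil/pectin values but that of library 4 lay below every corn oil/cellulose value, and the log2 fold change was -0.49 ± 0.14 (adjusted p = 0.00863). Gcnt4, at chr13:96924689-96950906 (plus strand), had 4.89, 7.69 and 9.41 CPM in fish oil/pectin libraries, against 8.57, 10.7 and 14.0 CPM in corn oil/cellulose libraries. Its ranges overlapped through fish oil/pectin libraries 2 and 3, and the log2 fold change was -0.60 ± 0.14 (adjusted p = 0.00295). Both calls held when any single library was left out, but not in the libraries numbered from 7 alone, where Gcnt1 had an adjusted p of 0.162 and Gcnt4 of 0.0760. In the GC-named libraries Gcnt1 did not pass (adjusted p = 0.0674 in the joint model).

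None of the 3 enzymes of core 3 synthesis and chain extension passed, where 41.7% of all genes did. B3gnt7, which extends sulfated lactosamine chains, had 162, 564 and 702 CPM in fish oil/pectin libraries, against 525, 670.0 and 1115 CPM in corn oil/cellulose libraries. Its lowest value was fish oil/pectin library 7, the next lowest was 539.9 CPM, and the log2 fold change of -0.40 had an interval of -0.90 to 0.10 (adjusted p = 0.179). B3gnt3, which extends core 1, differed by -0.13 on the log2 scale (adjusted p = 0.0991). B3gnt6, the core 3 synthase, had 0.21 (adjusted p = 0.458), with 6.99, 13.4 and 21.2 CPM in fish oil/pectin libraries against 7.17, 10.2 and 33.5 CPM in corn oil/cellulose libraries.

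B4galnt2, the enzyme of the Sda blood group antigen, fell the most in CPM among the enzymes that passed. Located at chr11:95865943-95914891 (minus strand), it had 136, 186 and 322 CPM in fish oil/pectin libraries, against 264, 341 and 446 CPM in corn oil/cellulose libraries. Fish oil/pectin libraries 4 to 7 lay below every corn oil/cellulose value, and the other 3 overlapped with them. The log2 fold change was -0.60 ± 0.13, or 0.66-fold (adjusted p = 0.0023), and the call held whichever library was left out. B4galnt3, which makes the GalNAc-GlcNAc disaccharide, had 18.6, 75.4 and 150.0 CPM in fish oil/pectin libraries, against 83.7, 121 and 178 CPM in corn oil/cellulose libraries. It did not pass (log2 fold change -0.55, adjusted p = 0.0811) but passed without fish oil/pectin library 7, its lowest value, when its residual SD was 0.29 on the log2 scale in place of 0.59. B4galnt1, the ganglioside GM2/GD2 synthase, differed by 0.16 on the log2 scale (adjusted p = 0.361).

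For B4galnt2 and Gcnt4, which both fell, 1 promoter window of each is shown. Another Gcnt4 window, chr13:96924094-96924393, holds no match to the motif below and is not shown. The motif searched on both strands is the GC box GGGCGG, which capitals mark: 1 match for B4galnt2, and 2 for Gcnt4 that read CCGCCC on this strand. GGGCGG occurs in 35.7% of the 32851 windows. Of the 8 members past the threshold with an entry, 4 hold it in at least 1 window, B4galnt2, Galnt11, Galnt7 and Gcnt4. A link between the motif and the diet effect was not tested. Searches of the same windows found TTTATNG, a Cdx site, in 1 of the 8 (10.9% of all windows), TATAAA in 1 (13.6%) and the E-box CACGTG in 0 (7.15%). The sequences are from RefSeq (GRCm38.p6), chr11:95914822-95915121, minus strand, for B4galnt2, and chr13:96924463-96924762, plus strand, for Gcnt4.
B4galnt2: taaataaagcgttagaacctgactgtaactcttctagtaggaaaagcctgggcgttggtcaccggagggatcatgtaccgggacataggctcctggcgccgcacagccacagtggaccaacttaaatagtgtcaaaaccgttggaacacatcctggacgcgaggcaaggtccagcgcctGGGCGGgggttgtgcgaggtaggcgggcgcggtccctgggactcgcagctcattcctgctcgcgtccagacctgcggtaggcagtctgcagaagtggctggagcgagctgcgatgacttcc
Gcnt4: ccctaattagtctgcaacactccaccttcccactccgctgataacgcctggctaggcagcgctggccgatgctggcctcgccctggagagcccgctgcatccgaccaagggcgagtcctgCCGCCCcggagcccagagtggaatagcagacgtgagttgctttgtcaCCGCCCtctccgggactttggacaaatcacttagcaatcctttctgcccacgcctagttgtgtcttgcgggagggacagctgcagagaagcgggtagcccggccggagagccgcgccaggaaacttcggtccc

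Of the 3 fucosyltransferases 1 rose, 1 fell and 1 did not pass, where 21.7% of all genes rose and 20.1% fell. Fut2, which makes the H-type fucose of gut mucins (the secretor enzyme of humans), lies at chr7:45648591-45666394 (GRCm38, minus strand) and had the largest log2 fold change among the members that rose. It had 152, 187 and 332 CPM in fish oil/pectin libraries, against 123, 153 and 211 CPM in corn oil/cellulose libraries. Fish oil/pectin libraries 2 and 7, at 332 and 277 CPM, lay above every corn oil/cellulose value and the other 5 within their range. The log2 fold change was 0.45 ± 0.14, or 1.37-fold (adjusted p = 0.0164), and without fish oil/pectin library 2 it was 0.32 and did not pass (adjusted p = 0.0732). Fut2 also did not pass with no name-form term, or in the GC-named libraries (adjusted p = 0.105 in the joint model).

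Fut4, which adds the fucose of Lewis x, fell. It had 53.7, 110.3 and 138 CPM in fish oil/pectin libraries, against 126, 133 and 198 CPM in corn oil/cellulose libraries, with no overlap among GC-named libraries (53.7 to 121 CPM against 126 to 176 CPM). The log2 fold change was -0.37 ± 0.14 (adjusted p = 0.0416), and -0.27 without fish oil/pectin library 7 (adjusted p = 0.0273). The Fut4 call was lost, with an adjusted p of at most 0.0917, without any of corn oil/cellulose libraries 3 to 9 or fish oil/pectin libraries 1 and 6. Fut8, which puts the core fucose on N-glycans, differed by -0.09 on the log2 scale (adjusted p = 0.391).

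No sialyltransferase passed among the 6 tested, where 41.7% of all genes passed, and their log2 fold changes ran from -0.32 to 0.09. St6galnac6, the most abundant per kilobase and an enzyme of disialylated glycans, had 716, 771 and 916 CPM in fish oil/pectin libraries, against 629, 761 and 919 CPM in corn oil/cellulose libraries. The change of 0.09 (log2) had an interval of -0.08 to 0.25 (adjusted p = 0.38). St3gal1, which caps core 1 with sialic acid, had 9.19, 14.9 and 22.0 CPM in fish oil/pectin libraries against 16, 19.2 and 23.9 CPM in corn oil/cellulose libraries, and a log2 fold change of -0.32 (adjusted p = 0.0678). It passed without fish oil/pectin library 3 or library 7, the highest of that diet. St3gal4, which sialylates terminal lactosamine, had a log2 fold change of 0.00 with an interval of -0.28 to 0.29.

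Neither tested sulfotransferase passed, where 41.7% of all genes did. Chst4, a GlcNAc sulfotransferase, had 55.7, 72.2 and 118 CPM in fish oil/pectin libraries, against 50.3, 71.6 and 98.4 CPM in corn oil/cellulose libraries. Chst4 differed by 0.23 on the log2 scale (interval -0.01 to 0.47, adjusted p = 0.107), and without corn oil/cellulose library 8 it was 0.32 and passed (adjusted p = 0.01). Gal3st2, which sulfates galactose, had 2.24, 5.54 and 6.68 CPM in fish oil/pectin libraries, against 4.09, 6.71 and 7.94 CPM in corn oil/cellulose libraries, and a log2 fold change of -0.39 (adjusted p = 0.0799). A pair of similar rows outside the rule, Gal3st2b and Gal3st2c, had log2 fold changes of -0.29 and -0.54 and did not pass.

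A joint model gave each member a diet effect within each name form, over 14803 tested genes. In the GC-named libraries 11 of 38 members passed (43.8% of all genes did), 3 higher and 8 lower (7.89% and 21.1%, against 22.2% and 21.6% of all genes). Of those 11, 7 had also passed over all libraries: Muc13, Galnt11, Galnt4, Galnt7, Gcnt4, B4galnt2 and Fut4. The other 4 were Galnt1 and Galnt5, which were lower, and Galnt6 and C1galt1c1, which were higher. In the libraries without the prefix, 2 against 4, edgeR called 0 members and 0 genes (0% of all genes), and 5 members had an unadjusted p under 0.05. A fit of those 6 libraries by themselves called 900 genes (6.36% of those tested) and 2 of 38 members, Muc3 and St3gal1, both lower. Summed absorptive colonocyte markers were also lower there without overlap, at 7436 to 7755 CPM with fish oil/pectin against 8588 to 10252 CPM with corn oil/cellulose, and their part in these calls was not tested. The 11 members past the threshold over all libraries had the same sign in both forms. They were chosen in a fit that holds both forms, which favours such agreement. Without that choice, 30 of the 38 members and 9544 of 14321 genes had the same sign in both forms. The difference between forms passed for 0 of the 38 members and for 8.03% of all genes, and the lowest adjusted p among members was the 0.0876 of Galnt5.

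**Figure D4:**
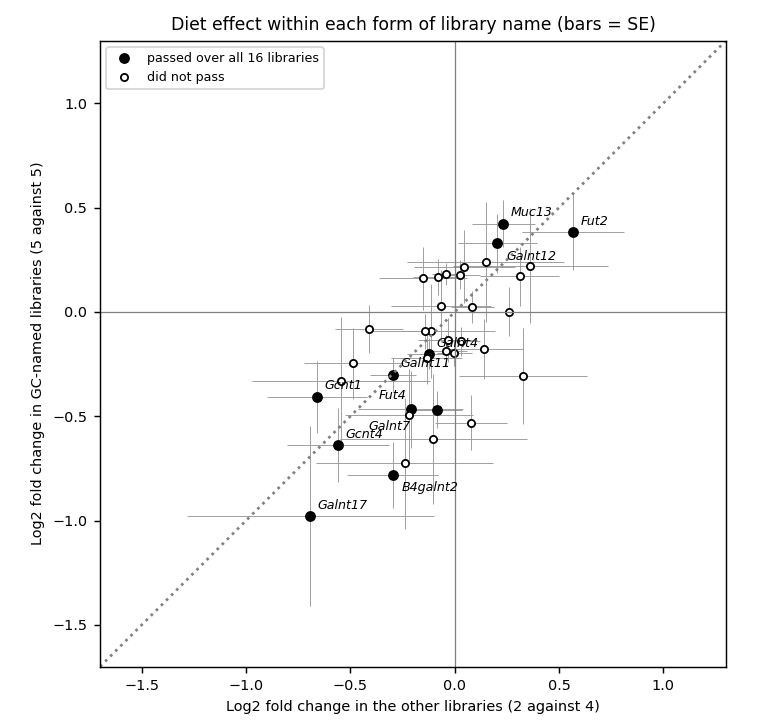
Log2 fold change of each tested member in the libraries without the GC prefix (horizontal axis, 2 fish oil/pectin and 4 corn oil/cellulose libraries) and in the GC-named libraries (vertical axis, 5 against 5), with SE bars and the line of equality dotted. The 11 members past the threshold over all libraries, filled, have the same sign on both axes. They were chosen from both forms together, and 30 of all 38 tested members have the same sign.

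Within the GC-named libraries alone, 2 members were higher without overlap, Muc13 and Galnt6, where 15.2% of all genes were. Lower without overlap were 7, Galnt11, Galnt17, Galnt5, Galnt7, C1galt1, B4galnt3 and Fut4, where 13.8% of all genes were. Muc13 had 2556 to 3224 CPM in GC-named fish oil/pectin libraries against 1920.1 to 2507 CPM in GC-named corn oil/cellulose libraries. B4galnt3 had 18.6 to 80.8 CPM against 83.7 to 129 CPM in the same libraries.

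Several genes that supply the sugar donors of these enzymes rose. Papss1 and Papss2, which make the sulfate donor PAPS, did not pass (log2 fold change 0.05 and -0.14, adjusted p = 0.477 and 0.344). Of 20 tested genes of nucleotide sugar and PAPS supply, 10 rose and 2 fell, against 21.7% and 20.1% of all genes, and their median log2 fold change was 0.13. Galk1, a galactokinase, averaged 30.4 ± 6.52 CPM in fish oil/pectin libraries and 18.6 ± 3.33 CPM in corn oil/cellulose libraries (log2 fold change 0.63 ± 0.10, adjusted p = 0.000461). Gmds, which starts GDP-fucose synthesis, averaged 405 ± 83.7 CPM in fish oil/pectin libraries and 272 ± 27.1 CPM in corn oil/cellulose libraries (0.57 ± 0.10, adjusted p = 0.000737). Tsta3, which completes GDP-fucose, averaged 199 ± 27.8 CPM and 158 ± 9.85 CPM in those diets (0.30 ± 0.07, adjusted p = 0.0019). The 2 that fell were Gfpt1, which opens the hexosamine pathway (-0.39 ± 0.09), and Fpgt of fucose salvage (-0.19 ± 0.07). The list's median was 0.15 in GC-named libraries and 0.01 in the others.

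Of 9 transporters of such donors and their precursors, Slc35b2, a PAPS transporter, rose (0.36 ± 0.06, adjusted p = 0.000629), and Slc26a2, a sulfate transporter of the cell surface, fell (-0.68 ± 0.14, adjusted p = 0.00169). Slc26a2 averaged 728 ± 169.9 CPM in fish oil/pectin libraries and 1159 ± 197 CPM in corn oil/cellulose libraries, and its log2 fold change was -0.68 in GC-named libraries and -0.69 in the others. The 7 remaining transporters did not pass, where 21.7% of all genes rose and 20.1% fell.

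**Figure D5:**
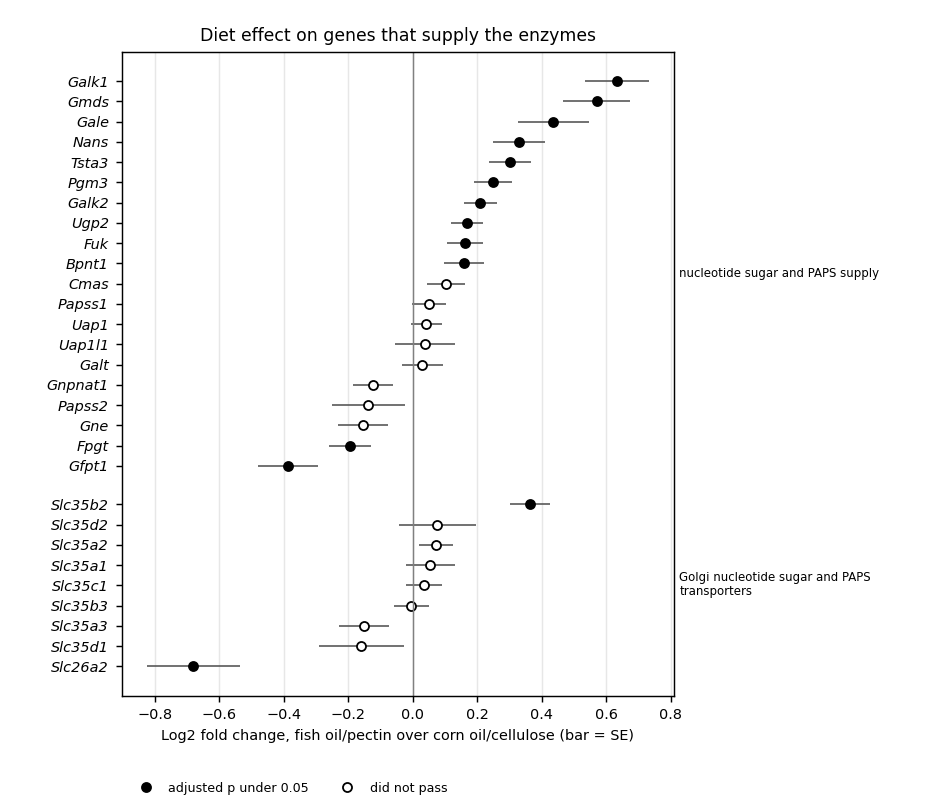
Log2 fold change, fish oil/pectin over corn oil/cellulose, with SE bars, for 20 genes of nucleotide sugar and PAPS supply (upper block) and 9 transporters (lower block). Filled points have an adjusted p under 0.05: 10 of the supply genes lie to the right of 0 and 2 to the left.

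Of 18 tested genes of chain extension, 3 rose and 3 fell, near or below the 21.7% and 20.1% of all genes. The lowest p-values were those of B4galnt4 (0.60 ± 0.20, adjusted p = 0.0202), a relative of B4galnt3 that also makes GalNAc-GlcNAc, of B4galt3 (-0.16 ± 0.05, adjusted p = 0.0274), a galactosyltransferase, and of Fut1 (0.49 ± 0.18, adjusted p = 0.0324), which makes the same H-type fucose as Fut2. Of 4 tested sialyltransferases outside the rule, 1 fell, where 20.1% of all genes did. That was St8sia4, a polysialyltransferase (-1.22 ± 0.27, adjusted p = 0.00228). It had a log2 fold change of -1.72 in GC-named libraries, where T and NK cell markers were also lower, and 0.10 in the others. The part of T and NK cells in the St8sia4 values was not tested.

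Among 7 tested secreted mucins and mucus proteins, Agr2, a chaperone needed for Muc2, rose and Muc5ac fell. Of all genes 21.7% rose and 20.1% fell. Agr2 averaged 1393 ± 385 CPM in fish oil/pectin libraries and 992 ± 264 CPM in corn oil/cellulose libraries (0.55 ± 0.16, adjusted p = 0.013). Muc5ac, the gastric surface mucin, was close to 0 in both diets, at 0.0802 ± 0.101 CPM and 0.418 ± 0.412 CPM (-2.65 ± 0.48, adjusted p = 0.000733). None of 3 tested sulfotransferases and neither of 2 tested membrane mucins outside the rule passed, where 41.7% of all genes did.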

How the data were processed

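Colonocyte mRNA of 16 mouse libraries was counted per gene by the authors, who deposited 1 table of raw counts. Per the labels' protocols, RNA was extracted with the RNeasy Micro kit and libraries were made with a stranded mRNA kit. The submitters' processing notes name STAR 2.6.0a, HTSeq 0.11.1 and GRCm38; the strand setting and the annotation release are not stated in these sources, so overlapping and antisense genes are uncertain. Titles call the libraries biological replicates but do not say that each came from its own mouse, and the p-values rest on the spread among libraries, which may be technical.

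Counts were filtered with filterByExpr, scaled with TMM and fitted with edgeR 4.0.16 (R 4.3.3) as diet plus name form, with the robust quasi-likelihood test and Benjamini-Hochberg adjustment over the 14321 genes tested, which hold 99.9% of all counts. The threshold was an adjusted p of 0.05. A log2 fold change is fish oil/pectin over corn oil/cellulose, and its SE is the change divided by the root of the F statistic. Intervals are 95% and use 13 degrees of freedom, which need not be those of the test, so interval and p-value can differ slightly. CPM carry the TMM factors. CPM per kilobase use merged exon length of GENCODE M21, which holds 98.8% of the symbols. The scripts were tested on simulated data. Alternatives used DESeq2 1.42.0, limma 3.58.1, other scalings, filters, covariates and subsets.

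Within a diet no pair of libraries agreed within sampling noise (chi-square per degree of freedom 8.20 to 141 over 57 pairs). The members and lists were chosen with earlier results of these data known. Named are all members past the threshold, the cell-surface mucins, C1galt1, C1galt1c1, the member of each role with the highest mean level per length, and up to 3 genes of each other list; further genes were named after their values were seen.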

Additional observations from a re-analysis of the deposited data

Results flagged for a closer look

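Within each diet, each tested member was examined for a library far from the others, in 76 groups of libraries. Such a library stood in 7 groups, where chance gives about 1 in 20, and 6 of the 7 involved fish oil/pectin library 7.

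For Galnt12 fish oil/pectin library 7 was the highest of its diet at 212 CPM, the next being 153 CPM, and for B4galnt1 it was the highest at 374 CPM, the next being 233 CPM. It was the lowest for Galnt17 at 0.172 CPM (next 2.76), for B3gnt7 at 162 CPM (next 539.9), for Fut4 at 53.7 CPM (next 104) and for St3gal6 at 84.0 CPM (next 189). The same library had the lowest summed distal colon markers, 147 CPM, and 0.631 CPM of Hoxd13, a gene of the distal colon. The part of colon region in these values was not tested. For B3gnt6 the highest of the corn oil/cellulose libraries was library 2, at 33.5 CPM with 15.9 CPM next.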

How the results depend on the processing

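Directions of the 11 members past the threshold held under every alternative. Leaving out each library in turn gave 2 to 4 members higher (3 over all libraries), 5 to 11 lower (8) and 5078 to 6065 genes in all (5979), with 5 lower without corn oil/cellulose library 6 or library 8. Members higher numbered 1 with no name-form term, 1 in the lower number series (library numbers from 7) alone, 1 without a filter, 0 in libraries that lack the GC prefix and 0 with the non-epithelial score. Members lower numbered 2 in libraries that lack the prefix (Muc3 and St3gal1), 2 in the lower number series, 14 with library totals alone, 5 without a filter, 0 with the non-epithelial score and 13 with the distal colon score, an alternative chosen after seeing the data. Genes in all numbered 900 without the prefix alone, 2250 in the lower number series, 3454 with the replicate block and 1 with the non-epithelial score. Calls on the higher side made up 51.9% of all calls, 37.3% with library totals and 66.8% with a length trend removed; without that trend Galnt11, Galnt12, Galnt17, Galnt4 and Fut4 did not pass and Muc3 did. DESeq2 gave 3 higher and 10 lower members. Without fish oil/pectin libraries 6 and 7 together, also chosen after seeing the data, there were 2 and 8. Signs turned for members that had not passed: Muc4 0.34 without the prefix alone, 0.36 with the non-epithelial score, 0.19 with the length trend removed, and from -0.22 to 0.018 on leaving out each library (0.00054 without fish oil/pectin library 6); C1galt1 0.047 without the prefix alone and 0.032 with the length trend removed; C1galt1c1 -0.021 with the length trend removed; Gcnt3 -0.13 without the prefix alone, -0.12 in the lower number series, -0.016 with library totals and -0.0082 with the distal colon score; St6galnac6 -0.063 without the prefix alone and -0.024 with the non-epithelial score. The cause was not tested. Replicate numbers did not pair libraries (correlations of same-numbered residuals -0.29 to 0.45); the replicate block gave 3 members higher and 6 lower. Besides the genes named above, some that had not passed did so on leaving out a library: B3gnt3, Gal3st2 and Galnt1 without fish oil/pectin library 2, Gal3st2 without corn oil/cellulose library 2, St6gal1 without fish oil/pectin library 6 and St6galnac2 without corn oil/cellulose library 7. No member differed between name forms whichever library was left out.

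The tested members at the lowest levels, Galnt18, Muc1, Galnt17, Galntl6, Gal3st2 and Gcnt4, rest on small counts, and those at or under 9 counts were not tested. Absence cannot be claimed for them at this depth.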
